A study of Homo sapiens with 8 samples.

Results

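Open chromatin was mapped on chromosomes 4, 13 and 18 of 293T cells in 8 chromatin fractions. All peaks of the 8 deposited peak lists that lay on these 3 chromosomes were taken, and peaks that shared at least 1 bp in any of the lists were merged into 1 region. This gave 3832 open regions of 36845 in the whole series (10.4%), of which 2089 lay on chromosome 4, 1153 on chromosome 13 and 590 on chromosome 18. They held 11236 of the 119972 peaks of the 8 lists. No measured value entered the choice of the regions other than their having been called as peaks.

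293T is a line from human embryonic kidney that carries the SV40 large T antigen. Its cells were crosslinked, permeabilised and treated with a transposase, which cuts accessible DNA and joins sequencing adapters to it (ATAC-seq), and the material was then put on Q Sepharose, an anion exchange resin from which bound, negatively charged material is released with salt. The 8 libraries are the flow-through (FT) and the material released by successive washes with 20, 100, 200, 300, 500, 700 and 1000 mM NaCl (G20, G100, G200, G300, G500, G700 and G1000), without drug or genotype as a factor. Each fraction was 1 library with no replicate, so a difference between fractions has no replicate check and every test describes these libraries. As far as the labels tell, the libraries came from 1 column, so they are not independent of each other, and since the peaks of the G200 list are named G50_200, it is not known if that list holds more than the 200 mM wash. The design set out to find how accessibility changes between the fractions.

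Chromosomes 4, 13 and 18 are gene-poor human chromosomes. Gene-poor chromosomes tend to lie near the nuclear lamina, where much of the chromatin is compact, replicates late and carries few promoters. Chromosome 18 is the textbook case of a peripheral territory and is often set against the gene-rich chromosome 19, which lies in the interior. Chromosome 13 is acrocentric: its short arm carries ribosomal and satellite repeats, which hg19 leaves without sequence. Open chromatin outside promoters is commonly found at enhancers, insulators and repeats. No genome or annotation of hg19 was used here, so regions are given by hg19 position (counted from 1) with no gene names and no sequence. The 293T genome is aneuploid, and the copy number of these chromosomes was not measured.

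The 3 chromosomes together held fewer open regions per Mb than the other chromosomes, but more per gene. Chromosomes 4, 13 and 18 together had 10.7 regions per Mb, against 13.2 on the other 20 chromosomes (1 to 22 and X). Length was counted to the last region, without the longest peak-free stretch. They made up 12.6% of that length and 10.5% of the regions, but only 6.90% of the protein-coding genes, which were counted per chromosome in RefSeq (assembly GRCh38.p14). There were 2.78 open regions per protein-coding gene on the 3 chromosomes, against 1.76 on the others. These chromosomes rank lowest of 23 in genes per Mb, with 3.54 on chromosome 13, 3.62 on chromosome 18 and 4.10 on chromosome 4.

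The 3 chromosomes differed among themselves. Chromosome 18 had 7.90 regions per Mb, the lowest value of the 23. Chromosome 4 had 11.1, the fifth lowest. Chromosome 13 had 12.1, near the median of 12.3, although it has the fewest genes per Mb, so that it had 3.41 regions per gene, the highest value. Chromosome 4 followed with 2.72, while chromosome 18, with 2.19, lay below chromosomes 2, 3, 5, 6 and 10. Regions called in 1 list only made up 48.7% of the regions on chromosome 13, 45.5% on chromosome 4 and 45.4% on chromosome 18, which are the 3 highest shares (the next was 45.4% on chromosome 8), against a median of 40.5% over the 23 chromosomes. Across the 23 chromosomes, genes per Mb had a Spearman's rho of 0.75 with regions per Mb, -0.85 with the share of single-list regions and -0.92 with the median spacing of regions. These are descriptions over chromosomes that share the same 8 libraries and differ in base composition. Chromosomes 4 and 18 also had the lowest shares of regions within 10 kb of the next region, 29.6% and 29.8%, against a median of 33.6% over the 23 chromosomes, and chromosome 13 had 30.9%.

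**Figure D1:**
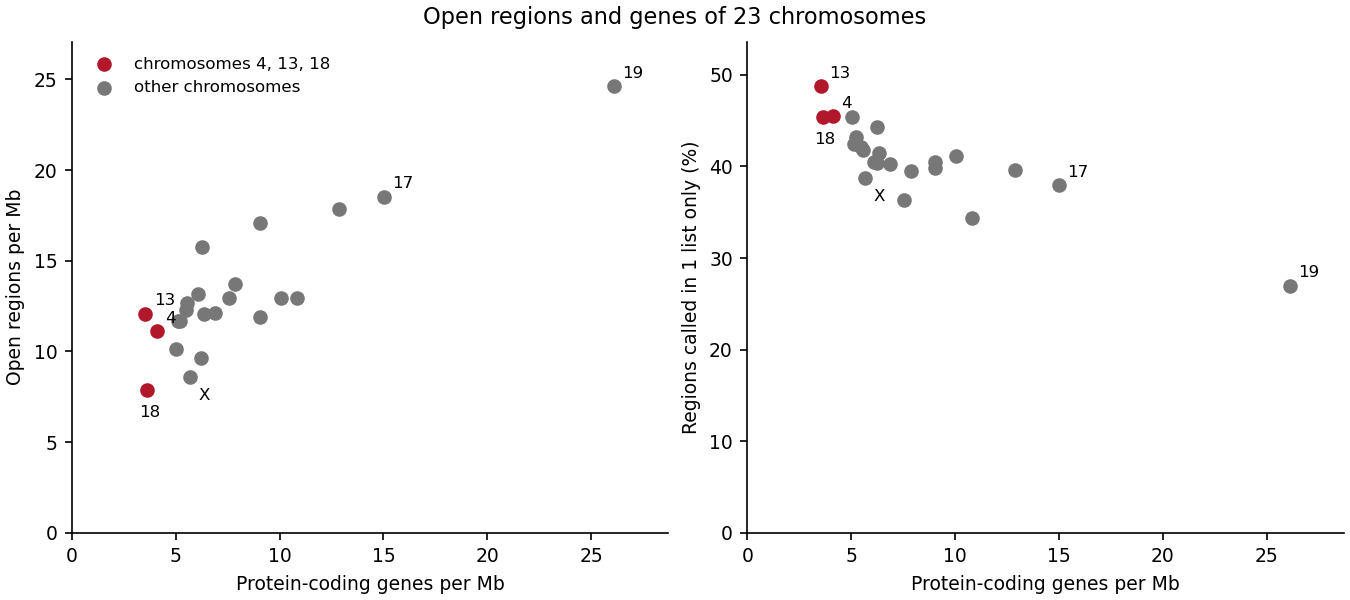
Open regions per Mb (left) and the share of regions called in 1 list only (right, %) against protein-coding genes per Mb. Each point is 1 of 23 chromosomes, with chromosomes 4, 13 and 18 in red. Chromosome 18 is the lowest point on the left at 7.90 regions per Mb, and chromosome 13 the highest on the right at 48.7%.

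The share of a peak list that lay on the 3 chromosomes lay within a narrow range over the fractions as long as whole lists were compared. It was 9.34% of the 22807 peaks of FT, 9.52% of 19484 for G20, 9.07% of 13244 for G100, 9.29% of 15988 for G200, 10.0% of 19717 for G300, 9.04% of 10384 for G500, 9.22% of 8102 for G700 and 8.83% of 10246 for G1000. The exact binomial 95% intervals, which cover counting error only, ran from 8.29% to 9.40% in G1000, which had the lowest share, and from 9.59% to 10.4% in G300, which had the highest. By chromosome, the counts in FT, G20, G100, G200, G300, G500, G700 and G1000 were 1178, 1045, 689, 811, 1092, 535, 424 and 534 peaks on chromosome 4. They were 629, 523, 341, 427, 576, 266, 218 and 238 peaks on chromosome 13, and 324, 287, 171, 248, 304, 138, 105 and 133 peaks on chromosome 18. On each of the 3 chromosomes FT held the most peaks and G700 the fewest, the order of the whole lists at both ends.

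The lists differ in length and depth, so each was also cut to the length of the G700 list (8102 peaks), keeping the peaks with the highest −log10 q, where q is the authors' false discovery rate of a peak. The 3 chromosomes then took 7.29% of FT, 8.0% of G20, 8.55% of G100, 7.85% of G200, 8.49% of G300, 8.52% of G500, 9.22% of G700 and 8.60% of G1000. FT was now the lowest, with an interval from 6.74% to 7.88%, and G700 the highest, with an interval from 8.60% to 9.87%. Lists of equal length were not equally strict: the weakest peak kept had a −log10 q of 7.89 in FT, against 1.32 in G700.

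Within a list, the peaks of the 3 chromosomes made up a larger share of the weaker calls than of the strongest ones. Among the 2000 strongest peaks their share was 5.25% for FT, 6.55% for G20, 6.90% for G100, 6.55% for G200, 7.0% for G300, 6.70% for G500, 7.80% for G700 and 7.15% for G1000. Among the peaks ranked below the first 8102, it was 10.5% for FT, 10.6% for G20, 9.88% for G100, 10.8% for G200, 11.1% for G300, 10.9% for G500 and 9.70% for G1000. The weaker part had the higher share in each of the 7 lists that have one.

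The share had no trend with salt that passed the test over the 7 washes. Over the 7 washes, Spearman's rho between salt and the share of whole lists was -0.57 (exact permutation test over all orders of the washes, two-sided, p = 0.200, Benjamini-Hochberg adjusted over 3 trends 0.30). Pearson's r was -0.51 (exact permutation p = 0.247) and -0.11 without the 2 washes farthest from the median salt. With lists of equal length rho turned to 0.68 (exact permutation p = 0.110). With FT placed before G20 as well, an alternative chosen after the values were seen, it was 0.79 (exact permutation test, adjusted p = 0.0419). The direction therefore depended on the list length compared.

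**Figure D2:**
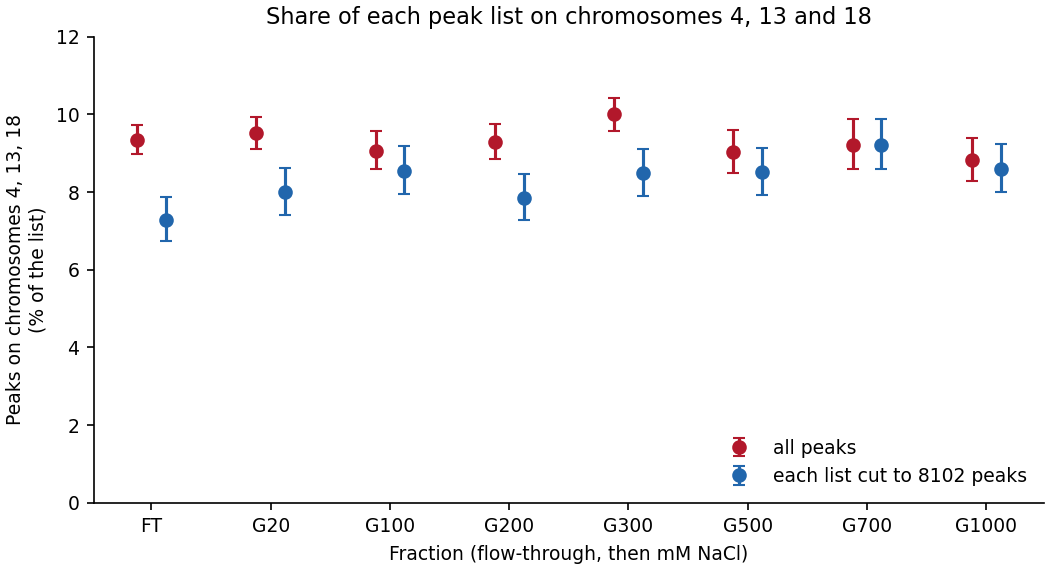
Share of each peak list on chromosomes 4, 13 and 18 (%) by fraction, for all peaks (red) and for the 8102 peaks of highest −log10 q (blue). Bars are exact binomial 95% intervals, which cover counting error only. All peaks lie between 8.83% and 10.0% with no order by salt, while the equal-length lists have FT lowest at 7.29% and G700 highest at 9.22%.

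Peaks of the 3 chromosomes were weaker than those of the other chromosomes in every library. Their median −log10 q was 5.18 in FT, against 5.96 on the other chromosomes. It was 5.33 against 6.12 in G20, 4.91 against 5.41 in G100, 4.75 against 5.52 in G200 and 5.22 against 5.86 in G300. In the washes of higher salt it was 4.70 against 5.14 in G500, 4.76 against 5.07 in G700 and 4.96 against 5.26 in G1000. The difference averaged -0.57 (SD 0.21 over the 8 libraries) and was lower in 8 of 8, with an exact sign-flip permutation p of 0.00781, the smallest that 8 libraries allow (0.00781 after adjustment over 4 differences). With lists of equal length it averaged -0.52 and was again lower in 8 of 8 (adjusted exact permutation p = 0.0104). The sign-flip p-values take the 8 libraries as independent, though many regions were called in several of them.

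The peaks were also narrower by a small amount. The median width was 490 bp in FT, against 533 bp on the other chromosomes. It was 437 against 463 bp in G20, 453 against 463 bp in G100, 454 against 479 bp in G200 and 467 against 490.5 bp in G300. It was 440 against 451 bp in G500, 405 against 420 bp in G700 and 427 against 444 bp in G1000. The mean difference was -21.3 bp (SD 10.7), narrower in 8 of 8 libraries (exact sign-flip permutation p = 0.00781, adjusted 0.00781, libraries taken as independent). At equal list length it was -13.9 bp and narrower in 7 of 8, FT being 5 bp wider (adjusted exact permutation p = 0.0234), and among the 2000 strongest peaks it was -8.88 bp and did not pass (adjusted exact permutation p = 0.266). By salt, the median width of the 3 chromosomes had a rho of -0.46 (exact permutation p = 0.302, adjusted 0.302) with an r of -0.62 (exact permutation p = 0.143), which was 0.08 without the 2 washes farthest from the median salt. With lists of equal length rho was -0.71 and did not pass (exact permutation test, adjusted p = 0.110). With FT placed before G20 as well, an alternative chosen after the values were seen, it was -0.81 (exact permutation test, adjusted p = 0.0419). The cut lists were not equally strict, with a lowest −log10 q of 7.89 in FT and 1.32 in G700. The part of this in the width trend was not tested.

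Neighbouring peaks lay farther apart on the 3 chromosomes in every library. The median spacing was 77.3 kb in FT, against 52.1 kb on the other chromosomes. It was 87.1 against 61.1 kb in G20, 147 against 87.9 kb in G100, 114 against 68.5 kb in G200 and 87.7 against 63.1 kb in G300. It was 192 against 112 kb in G500, 228 against 144 kb in G700 and 189 against 113 kb in G1000. The mean difference was 52.5 kb (SD 25.6), wider in 8 of 8 (exact sign-flip permutation p = 0.00781, adjusted 0.00781, libraries taken as independent), and 111 kb at equal list length (adjusted exact permutation p = 0.0104). In peaks per Mb, the density on the 3 chromosomes was between 0.678 (G1000) and 0.776 (G300) of that on the others, and at equal list length between 0.553 (FT) and 0.712 (G700). Spacing was taken within lists of unequal length, and the part of list length in it was not tested. Over the washes it had a rho of 0.75 with salt (exact permutation p = 0.0663, adjusted 0.199). Pearson's r was 0.76 (exact permutation p = 0.0520), and 0.63 without the 2 washes farthest from the median salt. At equal list length rho turned to -0.71 (adjusted exact permutation p = 0.110). With FT placed before G20, rho for whole lists was 0.83 and passed (exact permutation test, adjusted p = 0.0461), and at equal list length it was -0.29 and did not (adjusted p = 0.501).

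In whole lists, the local background of the peaks was lower on the 3 chromosomes together in 7 of 8 libraries. Recovered from the authors' fold and p, its median in units of the lowest background of the list was 2.2 against 2.58 on the other chromosomes in FT and 3.25 against 3.8 in G200. In G700 it was 3.33 on both. Chromosome 18 had the lowest or joint lowest median of the 3 in each library, 2.03 in FT and 2.78 in G700. Chromosome 13 lay above the other chromosomes in G500 (3.50 against 3.39), G700 (3.54 against 3.33) and G1000 (3.48 against 3.29). At equal list length chromosome 13 lay above them in all 8 libraries (3.88 against 3.64 in FT), and the 3 together lay above them in G300 (3.8 against 3.73) and G500 (3.70 against 3.65). The part of the background in these differences was not tested. The lowest background of a list, a relative depth, was 0.662 reads for FT, 0.420 for G20, 0.320 for G100, 0.239 for G200, 0.497 for G300, 0.279 for G500, 0.248 for G700 and 0.291 for G1000.

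**Figure D3:**
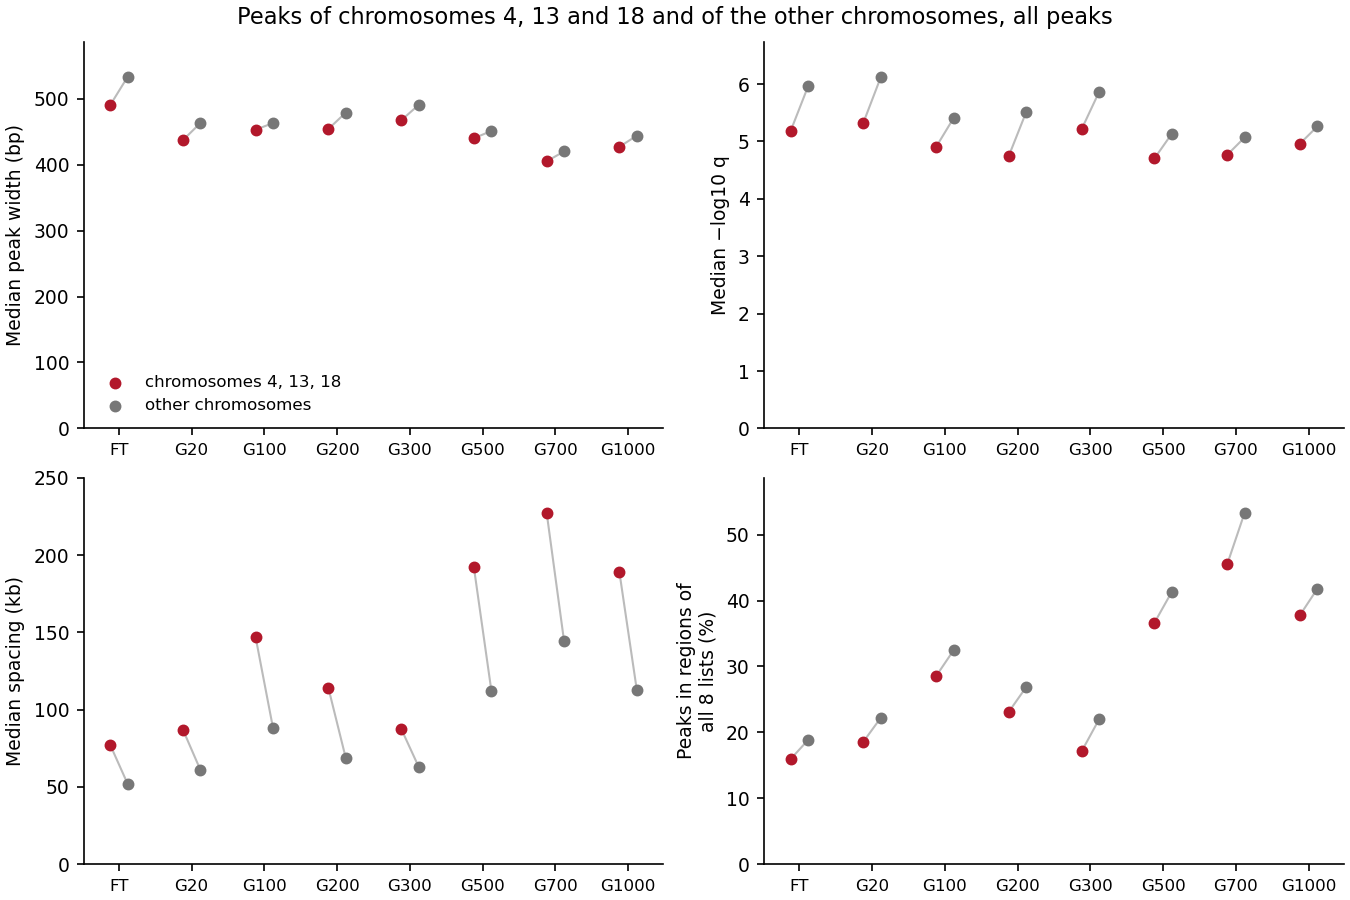
Median peak width (bp), median −log10 q, median spacing of neighbouring peaks (kb) and the share of peaks in regions of all 8 lists (%) for chromosomes 4, 13 and 18 (red, left) and the other chromosomes (grey, right) in each library, all peaks, with a line joining the pair. Red lies below grey in 8 of 8 libraries for width, −log10 q and sharing, and above it in 8 of 8 for spacing.

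Sharing between fractions was lower on the 3 chromosomes together than on the others. Of their 3832 regions, 338 (8.82%) were called in all 8 lists, where 11.5% of all regions of the series were. On the other placed chromosomes the share was 11.7%. In a single list were 1781 regions (46.5%), against 40.1% on the other chromosomes and 40.7% of all regions. The regions called in 2 lists numbered 516, and those called in 3, 4, 5, 6 and 7 lists numbered 332, 253, 218, 194 and 200. Chromosome 4 held 200 of the regions in all 8 lists, chromosome 13 held 91 and chromosome 18 held 47, which are 9.57%, 7.89% and 7.97% of their regions. A low share was not particular to them: chromosome 20 had the lowest, 7.07%, and chromosomes 8, 10, 15 and 17 also lay below chromosome 4. Over the 23 chromosomes the share had a Spearman's rho of 0.36 with genes per Mb.

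Counted by peaks, 16.0% of the peaks of the 3 chromosomes in FT lay in regions of all 8 lists, against 18.9% on the other chromosomes. The shares were 18.6% against 22.2% in G20, 28.6% against 32.5% in G100, 23.1% against 26.9% in G200 and 17.1% against 22% in G300. They were 36.6% against 41.4% in G500, 45.5% against 53.3% in G700 and 37.8% against 41.8% in G1000. The difference averaged -4.46 percentage points (SD 1.50) and was lower in each library. With lists of equal length it averaged -7.09 points, and among the 2000 strongest peaks of each list -2.39 points. Regions of all 8 lists are the same regions in every list, so the 8 differences rest on 1 set of regions and no p is given for them.

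With lists of equal length the 3 chromosomes had 1562 regions, of which 206 (13.2%) were in all 8 lists, against 18.4% on the other chromosomes and 18% of all regions. There were 576 regions of a single list (36.9%), against 30.9% on the other chromosomes and 31.4% of all regions. For 2 lists, the regions called in both made up between 40.2% (G200 and G700) and 53.5% (G20 and G300) of the regions called in either. That is 396 of 635 regions in G200 (62.4%) and of 745 in G700 (53.2%), and 465 of 646 regions in G20 (72.0%) and of 688 in G300 (67.6%).

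**Figure D4:**
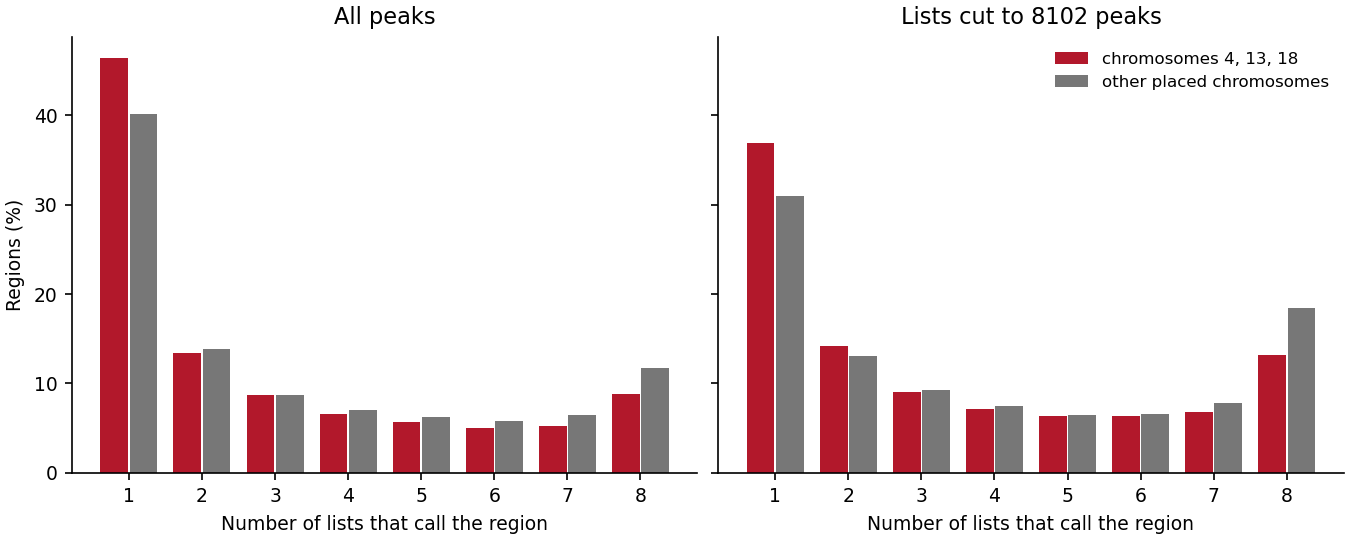
Share of regions (%) by the number of lists that call them, for chromosomes 4, 13 and 18 (red) and the other placed chromosomes (grey), with all peaks (left) and with lists cut to 8102 peaks (right). Red is higher at 1 list (46.5% and 36.9%) and lower at 8 lists (8.82% and 13.2%).

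Regions of a single list were narrow and weak, and regions of all lists wide and strong. A region spans all peaks merged into it, so its width can grow with the number of lists. A region of all lists has also passed the threshold of each list. The median region width on the 3 chromosomes was 351 bp at 1 list, 508.5 bp at 2, 695 bp at 4 and 937 bp at 8 lists. For single peaks of FT, the median width was 364.5 bp in regions of no other list and 795 bp in regions of all lists. For G700 these widths were 316 and 486.5 bp. In FT, the 472 peaks found in no other list had a median −log10 q of 3.14, and the 340 peaks in regions of all lists 12.5. On the other chromosomes these medians were 3.28 and 15.2. In G700 the medians on the 3 chromosomes were 2.73 for its 43 private peaks and 6.71 for the shared ones, against 2.49 and 6.95 on the other chromosomes. At 1 list and at 8 lists the region widths were close to those on the other chromosomes (349 and 938 bp). Regions of 2, 3, 6 and 7 lists were narrower, with 508.5 against 514 bp, 598 against 616 bp, 789 against 807 bp and 832.5 against 877 bp. Those of 4 and 5 lists were wider, with 695 against 685 bp and 759 against 751 bp. The median over all regions was 487 bp, against 535 bp. Regions of 1500 bp or more numbered 31 (0.809%), against 1.01% on the other chromosomes, and all regions together covered 2190 kb.

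Within regions of all lists the summits of the fractions seldom lay at 1 point. In the 318 such regions with 1 peak per list, the summits spanned a median of 245.5 bp, against 227 bp in 3740 regions of the other chromosomes. The narrowest peak of such a region had a median width of 407.5 bp, against 407 bp on the other chromosomes. The summits fell within 100 bp of each other in 16 regions (5.03%), against 7.27%.

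The single-list regions numbered 472 for FT, 334 for G20, 122 for G100, 272 for G200, 407 for G300, 70 for G500, 43 for G700 and 61 for G1000. With lists cut they numbered 38, 43, 68, 72, 47, 86, 136 and 86 in the same order, so that FT had the fewest and G700 the most. A region was called low-side where FT, G20 and G100 called it and none of G500, G700 and G1000 did, and high-side in the reverse case. There were 102 low-side regions on the 3 chromosomes (2.66%), against 3.1% of all regions of the series, with 54 on chromosome 4, 28 on chromosome 13 and 20 on chromosome 18. There were 0 high-side regions, against 0.00543% of all regions, which is 2 regions in all. At equal list length there were 5 low-side regions (0.320%, against 0.767% of all) and 5 high-side regions (0.320%, against 0.47% of all). The low side thus outnumbered the high side in the whole lists, and the sides were equal in number at equal list length.

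The best-ranked shared regions were chosen by their mean rank of −log10 q over the 8 lists, so their strength follows from the choice. On chromosome 4 the best-ranked region of all lists lay at 68265423 to 68265995, 573 bp wide. Its −log10 q was 108 for FT, 86.8 for G20, 73.8 for G100, 48.0 for G200, 127 for G300, 65.1 for G500, 69.5 for G700 and 79.4 for G1000, so it was highest for G300 and lowest for G200. Its summits lay within 42 bp in all 8 libraries. The next on that chromosome, at 9153958 to 9155073, had a −log10 q of 27.8 (G500) to 50.3 (G20), and the third, at 3956982 to 3958210, of 23.8 (G700) to 64.3 (G300).

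On chromosome 13 the leading region lay at 67409015 to 67409933. Its −log10 q was 35.1 for FT, 65.2 for G20, 43.7 for G100, 46.0 for G200, 68.7 for G300, 40.6 for G500, 23.8 for G700 and 30.6 for G1000, again highest for G300. The regions at 52157880 to 52159262 and at 67804170 to 67805370 followed, with medians over the libraries of 33.9 and 28.2. On chromosome 18 the leading region lay near the tip of the short arm, at 107889 to 109327, 1439 bp wide. Its −log10 q was 159 for FT, 103 for G20, 85.0 for G100, 44.3 for G200, 117 for G300, 54.9 for G500, 47.6 for G700 and 60.7 for G1000. The second on chromosome 18, at 18518436 to 18520338, borders the longest peak-free stretch of the chromosome and is also its widest region at 1903 bp. Such places commonly hold satellite repeats, and how multiply mapped reads were treated is not given in the sources used here. The third, at 29671851 to 29672892, had a −log10 q of 11 (G500) to 30.2 (G300).

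Apart from the region beside the peak-free stretch of chromosome 18, the widest regions were weaker than the best-ranked ones, chosen by −log10 q. The widest of the 3 chromosomes, 1959 bp at 151935565 to 151937523 on chromosome 4, was called in 7 lists and missing from G700, with a −log10 q of 4.90 to 8.37. The next on chromosome 4, at 140098009 to 140099961, was in all lists with a −log10 q of 1.76 (G700) to 10.8 (G200). On chromosome 13 the widest regions lay at 41634383 to 41636194 and at 37573600 to 37575359, and on chromosome 18 a 1693 bp region at 21165422 to 21167114 was missing from G500. In each of these 5 regions the FT peak, at 1522 to 1849 bp, was wider than the peaks of G500, G700 and G1000 where these were called. The regions were picked by width, and FT peaks were wider on the 3 chromosomes as a whole. Their median was 490 bp, against 440, 405 and 427 bp in G500, G700 and G1000. In the region at 151935565 to 151937523, the peaks of G20 (1535 bp) and G300 (1871 bp) were wider still than that of FT (1532 bp). The region beside the peak-free stretch, the widest of chromosome 18, had a peak of 1837 bp in FT, 1840 bp in G500 and 1897 bp in G1000. G700 called 2 peaks in that region, and 1 of them was 504 bp wide.

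Among low-side regions the best-ranked on chromosome 4 lay at 13546392 to 13547039. Its −log10 q was 17.1 for FT, 8.59 for G20, 3.42 for G100, 3.77 for G200 and 9.12 for G300, with no peak for G500, G700 or G1000. The second there lay at 2470232 to 2471337, with 5.24 to 8.92 in the 4 lists that called it. The region at 100632823 to 100633980 on chromosome 13 had 8.01 for FT, 7.24 for G20, 5.63 for G100, 11.4 for G200 and 11.9 for G300, and the one at 28400552 to 28401339 reached 12.6 for FT. The leading low-side regions of chromosome 18 lay at 21574382 to 21575005, with up to 9.70 (G200), and at 53388238 to 53388930, with up to 12.6 (FT). Absence of a peak in the shorter lists means that the region did not reach their threshold, and is not a measurement of closed chromatin.

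The best-ranked shared regions were chosen by −log10 q, and the strongest peaks of regions that 1 list alone called were weaker. They had a −log10 q of 9.38 in FT (chromosome 4, 39367632 to 39368064), 11.3 in G20 (chromosome 4, 49122903 to 49123194) and 7.22 in G100 (chromosome 4, 186037041 to 186037489). They had 10.2 in G200 (chromosome 4, 166887824 to 166888347), 10.3 in G300 (chromosome 13, 48348146 to 48348472) and 8.38 in G500 (chromosome 4, 49122079 to 49122389). In G700 the value was 7.97 (chromosome 4, 176219380 to 176219748) and in G1000 it was 7.23 (chromosome 4, 95331816 to 95332130). Those of G20 and G500 lay less than 1 kb apart, beside the longest peak-free stretch of chromosome 4. The summit of the FT peak held 13 recovered reads and that of the G700 peak 9.

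The reads at the summit of a peak could be recovered from the authors' fold and p, which allows a comparison by depth. For each of 4216 regions called in all 8 lists, each library was compared with the other 7 by an exact binomial test, with expected shares from ordinary regions of all chromosomes and adjustment over all regions and libraries. Of the 338 members tested, 4 (1.18%) passed in at least 1 library, against 2.42% of all regions. The test compares libraries and not conditions, and its p takes reads as independent and covers counting error only. Each count was taken at the summit of that list's own peak, so the libraries were often compared at different positions within a region. In FT and G200, which hold 4 of the 5 calls, single regions spread by more than counting error. A region with few reads had little chance to pass: the median member had 25 reads in FT and 13 in G700.

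At the summit of each list's peak, the region at 107889 to 109327 on chromosome 18 had 267 reads for FT, 178 for G20, 155 for G100, 84 for G200, 203 for G300, 110 for G500, 90 for G700 and 117 for G1000. FT was 1.3 times its expected count (exact binomial, adjusted p = 0.00234) and G200 0.567 times (adjusted p = 1.68e-06). With expected shares from the background of each list both calls were lost, FT being 0.990 and G200 0.862 times the expected count. The region at 68265423 to 68265995 on chromosome 4 had 140 reads for FT, 110 for G20, 94 for G100, 61 for G200, 158 for G300, 86 for G500, 89 for G700 and 101 for G1000. G200 was again low, at 0.591 times the expected count (exact binomial, adjusted p = 0.00118). With the background scaling G200 was 0.898 times the expected count and did not pass, and FT passed at 0.745 times (exact binomial, adjusted p = 0.00321). The region at 11980505 to 11981921 on chromosome 18 went the other way, with 42 reads in G200 and 13 to 31 in the other 7 libraries, 1.80 times the expected count (exact binomial, adjusted p = 0.0324). The region at 37620923 to 37621869 on chromosome 13 had 38 reads in G700, 1.91 times the expected count (exact binomial, adjusted p = 0.0318), and 21 to 39 in the other 7. Of these 5 calls, 3 were made on G200, and 0 members passed without G200 and 2 without FT. With expected shares taken from the background of each list, 84 members (24.9%) passed, against 28% of all regions, so that the count depends on the scaling. The G200 call at 11980505 and the G700 call at 37620923 were also made with that scaling, at 2.73 and 1.83 times the expected count. The summits of the lists spanned 347 bp in the region at 107889, 42 bp at 68265423, 414 bp at 11980505 and 147 bp at 37620923.

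Summed over the 328 ordinary members of all lists, the reads were 0.940 of the expected number for FT (95% Poisson interval 0.920 to 0.959), 0.968 for G20, 1.03 for G100, 0.967 for G200, 1.04 for G300, 1.01 for G500, 1.08 for G700 (1.05 to 1.11) and 1.03 for G1000. The intervals of FT, G20 and G200 lay below 1 and those of G100, G300 and G700 above it, and they cover counting error only. Chromosomes 4 and 13 parted in G200, with 0.931 (0.902 to 0.962) and 1.05 (1.00 to 1.09). In G700 chromosomes 4 and 13 both had 1.09, while chromosome 18 had 0.975 (0.895 to 1.06). The spread of single members around the expected reads was 1.20 times the counting error in FT and 1.18 in G200, and 0.822 to 0.972 in the other 6 libraries.

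Along the chromosomes, open regions were unevenly spread over the 5 Mb bins, and the fractions ranked the bins in a similar order. The rank order of the bins by peak count had a median Spearman's rho over the 28 pairs of lists of 0.89 on chromosome 4 (38 bins), 0.85 on chromosome 13 (19 bins) and 0.83 on chromosome 18 (15 bins). At equal list length the medians were 0.87, 0.85 and 0.76, and the lowest pair was 0.48 on chromosome 18. These are correlations across bins of the same libraries, given as descriptions.

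The fullest bins of chromosome 4 lay at 140 to 145 Mb with 94 regions and at 110 to 115 Mb with 91, ahead of the tip of the short arm, 0 to 5 Mb, with 88. On chromosome 13 they lay at 65 to 70 Mb with 97 regions and at 75 to 80 Mb with 93. On chromosome 18 they lay at 30 to 35 Mb with 89 regions and at 20 to 25 Mb with 74. At equal list length, both of these bins on chromosome 18 were among the 3 fullest in all 8 lists. The fullest bin of chromosome 13 by regions, 65 to 70 Mb, was among the 3 fullest in 1 list only, and the bin at 50 to 55 Mb in all 8: the 65 to 70 Mb bin had 52 regions of a single list and 6 of all lists, while 50 to 55 Mb had 33 and 13. On chromosome 4 the tip of the short arm was among the 3 fullest in 7 lists and 110 to 115 Mb in 5, while 140 to 145 Mb was so in 1. A bin rich in regions was thus not always rich in strong peaks.

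A few bins differed between fractions at equal list length. The bin at 105 to 110 Mb of chromosome 4 held 4 peaks of FT, 7 of G20, 10 of G100, 12 of G200, 11 of G300, 12 of G500, 12 of G700 and 13 of G1000. The bin at 60 to 65 Mb of chromosome 13 held 17 peaks of G500 and 16 of G700, against 8 to 11 in the other 6 libraries. These bins were picked after their values were seen, from all bins of the 3 chromosomes, and carry no test.

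**Figure D5:**
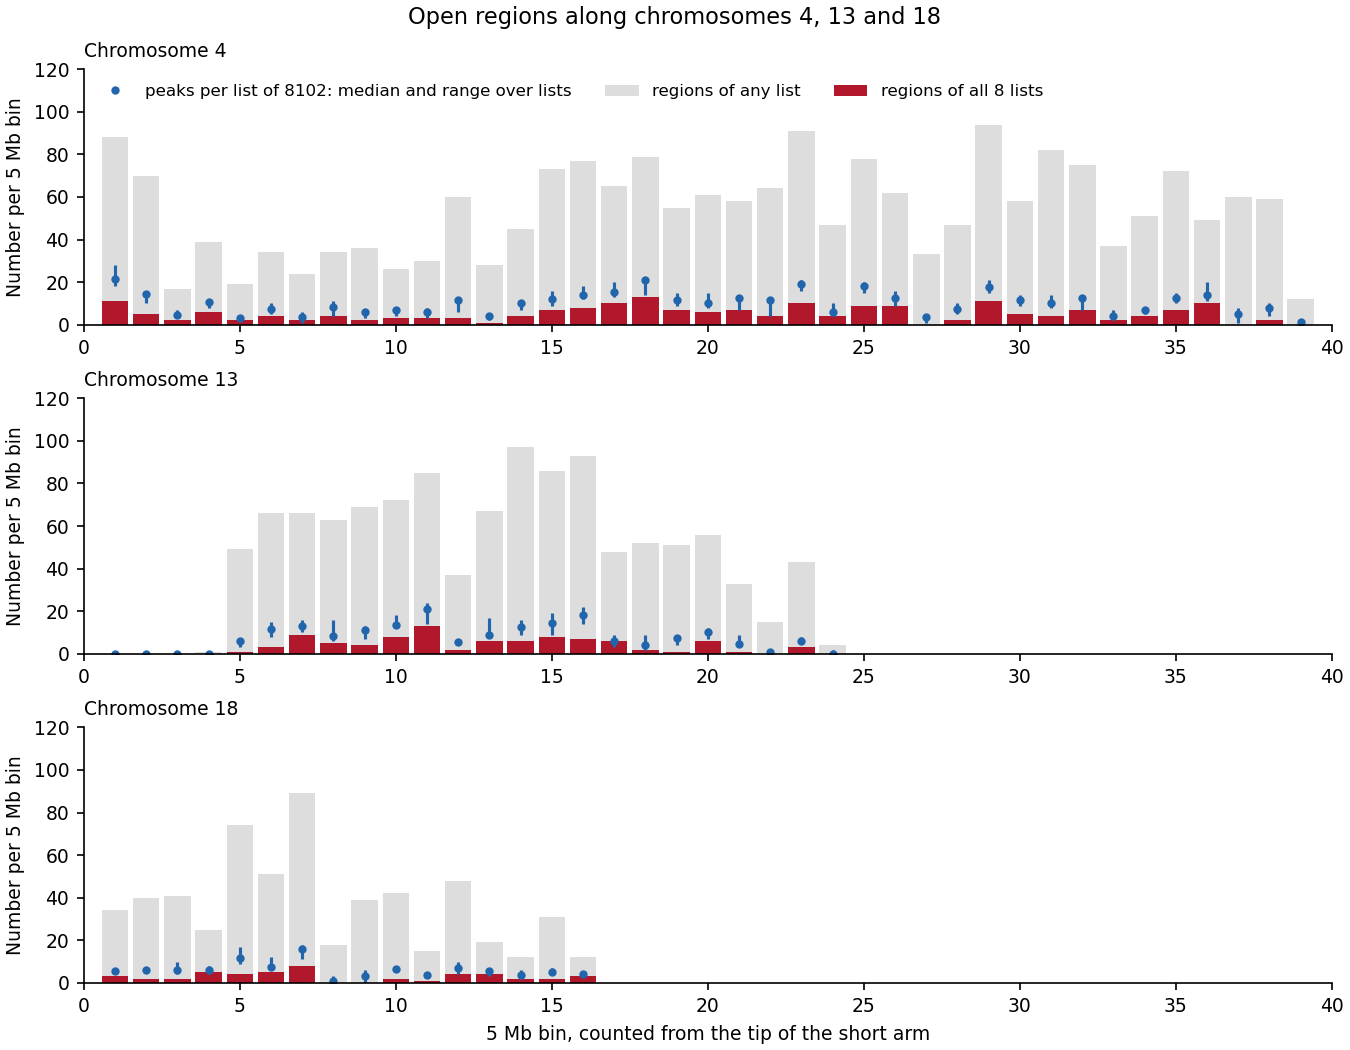
Number of open regions of any list (grey bars), regions of all 8 lists (red bars) and peaks per list of 8102 (blue points for the median and lines for the range over the 8 lists) in 5 Mb bins of chromosomes 4, 13 and 18, counted from the tip of the short arm. Chromosome 4 has a sparse stretch in bins 3 to 11, chromosome 13 starts at bin 4, and bins 5 and 7 stand out on chromosome 18.

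Regions were denser on the long arm of chromosome 4 than on its short arm, and about as dense on both arms of chromosome 18. The short arm of chromosome 4 had 387 regions in 49.3 Mb (7.85 per Mb) and the long arm 1702 regions in 138 Mb (12.3 per Mb). On chromosome 18 the short arm had 116 regions in 15.2 Mb (7.65 per Mb) and the long arm 474 in 59.5 Mb (7.97 per Mb). The first region of chromosome 13 began after 19683293 bp without any peak, a stretch that takes in the unsequenced short arm. Sparse bins lay at 10 to 15 Mb of chromosome 4 with 17 regions, 105 to 110 Mb of chromosome 13 with 15, and 65 to 70 Mb of chromosome 18 with 12.

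Stretches of 1 Mb or more without a peak in any list numbered 14 on chromosome 4 (21.5 Mb together), 10 on chromosome 18 (18.8 Mb) and 4 on chromosome 13 (7.34 Mb, its start left out). The longest on chromosome 4 ran from 49319108 to 52708748 (3.39 Mb) and the longest on chromosome 18 from 15171477 to 18517079 (3.35 Mb), both across the centromere. A second long one on chromosome 18 lay within the long arm, from 48800269 to 51750877 (2.95 Mb). On chromosome 13 the longest within the long arm ran from 55420468 to 57537677 (2.12 Mb).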

How the data were processed

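Peak lists of 8 ATAC-seq libraries were used as deposited. Per the submitters' processing notes, the tools were HOMER, MACS2 2.2.1 and Bowtie2 2.2.6, and the builds hg19 and mm10. The files use the chromosome names of hg19. Settings for filtering reads and calling peaks: not given in the sources used here. The authors called peaks in each library alone, and each list deposited by the authors gives a peak's score, its fold enrichment over background, its −log10 q and its −log10 p. These are the authors' values, used to rank and describe peaks within a list.

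Chromosomes 4, 13 and 18 were compared with the other placed chromosomes (1 to 22 and X) within each library, and the 7 washes were tested against salt, with SciPy 1.17.1. Whole-number pileups up to 3000 that gave the deposited fold and −log10 p within 0.001 were taken as reads, and 99.96% to 99.98% of peaks matched, where shuffled p-values matched in 0.25% to 0.85%. A pileup may count fragments.

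The members, lists and tests were chosen with earlier results of these data known. Named regions are, per chromosome, the 3 best-ranked regions of all lists, the 2 widest, the 2 best-ranked low-side and every high-side region, the 2 fullest bins and the longest peak-free stretch, then the strongest peak found in each list alone and every region past the read test. Other bins, stretches and regions were named after their values were seen. A list of gene promoters had been drawn up, and was not used because no annotation of hg19 was used here. The 2000-peak lists, FT before G20 at equal list length and the omission of each library at equal list length were added after the data were seen.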

Additional observations from a re-analysis of the deposited data

Results flagged for a closer look

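A sequence assigned to chromosome 4 but not placed on it, chr4_gl000194_random, held 6 peaks over the 8 lists and was not counted among the 3832 regions. It had 1 peak in FT, G20, G100 and G300 each, 2 in G200 and 0 in G500, G700 and G1000. The best −log10 q was 11.7 for FT, 5.36 for G20, 7.37 for G100, 10.1 for G200 and 4.80 for G300. It was set apart because it is a signal outside the sequences compared, and the lists without a peak are the 3 shortest. The other such sequence, chr4_gl000193_random, had 1 peak in FT and 1 in G300.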

How the results depend on the processing

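No paired analysis was possible because each fraction had 1 library and the labels give no replicate numbers. With lists cut to the shortest, the trend of the share with salt turned to a rho of 0.68 and that of spacing to -0.71. With FT before G20 the spacing trend was 0.83 (adjusted exact permutation p = 0.0461). With both, a setting added after the values were seen, the share trend was 0.79, the width trend -0.81 (adjusted exact permutation p = 0.0419 for either) and the spacing trend -0.29. With the 2000 strongest peaks the share trend was 0.76, the spacing trend -0.11, the width difference -8.88 bp and the sharing difference -2.39 points. The cause was not tested. Members past the read test numbered 4, and 84 with background scaling, 0 without G200 and 2 without FT.

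Leaving out each library in turn gave, with all peaks, share trends of -0.77 to -0.31, width trends of -0.71 to -0.20, spacing trends of 0.60 to 0.77, width differences of -22.9 to -18.2 bp, −log10 q differences of -0.60 to -0.53, spacing differences of 48.1 to 56.5 kb and sharing differences of -4.94 to -4.30 points. At equal list length the ranges were 0.54 to 0.89, -0.89 to -0.54, -0.89 to -0.54, -16.6 to -11.9 bp, -0.56 to -0.45, 106 to 115 kb and -8.11 to -6.45 points, in the same order of results. The share and spacing trends thus changed sign at equal list length with any library left out, and were 0.89 and -0.89 without G100. The other alternatives (a −log10 q of at least 3, peaks beside the longest peak-free stretch and ends left out, the rest without chromosomes 17, 19 and 22, 50% overlap) kept each direction and call they were run on. Depth limits the read test, and a missing peak in a short list is no measure of closure.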

Other observations

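On the short arm of chromosome 4, 10.6% of regions belonged to all 8 lists and 41.9% to 1 list only, against 9.34% and 46.4% on the long arm. On chromosome 18 the shares in all 8 lists were 6.03% on the short arm and 8.44% on the long arm. The bin at 175 to 180 Mb of chromosome 4 had 49 regions, of which 10 (20.4%) were in all 8 lists. The bin at 130 to 135 Mb of that chromosome had 33 regions, with 0 common to all 8 lists and 18 found in 1 only, and the bin at 35 to 40 Mb of chromosome 18 had 18 regions, with 0 common to all 8 lists and 13 found in 1 only. These bins were picked after their values were seen.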
